A study of Homo sapiens with 18 samples.

Results

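NF1 mutant and parental NCI-H2052 cells were compared after 24 h in 1 µM VT107, in 3 libraries per group, which are 6 of the 18 libraries of the series. NCI-H2052 is a human pleural mesothelioma line with NF2 and LATS2 mutations, so both groups lack normal Hippo signalling, and both were grown in RPMI with fetal bovine serum. VT107 is a small molecule that blocks the palmitoylation of TEAD transcription factors. For the NF1 mutant cells the methods of the study describe lentiviral Cas9, an NF1 guide RNA and antibiotic selection, which leaves a mixed population of edited cells. Whether the parental cells carried Cas9 or a control guide is not given in the sources used here. PolyA RNA was sequenced and counted per gene. The same genotype comparison in DMSO, with 3 other libraries per group, is shown beside it. The question addressed was how cells with and without an NF1 mutation differ in their transcriptome while TEADs are inhibited.

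NF1 encodes neurofibromin, a GTPase-activating protein that switches RAS off, and its loss raises signalling through RAF, MEK and ERK. The Hippo kinases restrain YAP and TAZ, coactivators that work through TEAD proteins bound to DNA. In mesothelioma, loss of NF2 or of the LATS kinases leaves YAP and TAZ active, and genes such as CTGF, CYR61 and ANKRD1 are widely used as readouts of their activity.

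The names of the deposited columns give all parental H2052 libraries one prefix, a date, and all NF1 mutant libraries another prefix, in VT107 and in DMSO. Library set and genotype therefore cannot be told apart in any value below. The sets also differed in depth: under VT107 the gene counts summed to 12424914 to 13346712 in parental libraries and to 3285363 to 4806065 in NF1 mutant libraries. A pair of VT107 libraries stood apart. NF1 mutant replicate 1 had Spearman correlations across genes of 0.786 and 0.816 with its replicates, which reached 0.978 with each other, and parental replicate 3 had 0.923 and 0.917 against 0.988. Of 24 mesothelial and keratin genes, 14 reached 0.5 CPM in all 6 libraries, while MUC16, HAND2, KRT5, KRT86 and KRT6A were at 0. PTPRC, CD3E, VWF, EPCAM and NKX2-1, defining markers of leukocytes, endothelium and lung epithelium, were at 0 in all 6 as well. The summed level of 24 mesothelial and keratin genes was higher in mutant libraries (4190 to 8056 CPM) than in parental ones (2416 to 3743 CPM). KRT19, described below, made up a large part of this sum, which does not describe every member. The sum of 7 leukocyte markers was 12.4 to 26.1 against 4.57 to 17.2 CPM, and that of 7 fibroblast markers 146 to 310.1 against 137 to 328 CPM, and their part in the results was not tested.

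The sequences of a pair of TEAD target promoters are shown because CTGF and ANKRD1 are the readouts of TEAD activity described below. They are the 250 bases before the start of each gene in RefSeq (GRCh38.p14), 5′ to 3′ on the minus strand. Capitals mark GGAATG, the core of the TEAD binding motif, which was searched with its reverse complement CATTCC.
CTGF, chr6:131951373-131951622: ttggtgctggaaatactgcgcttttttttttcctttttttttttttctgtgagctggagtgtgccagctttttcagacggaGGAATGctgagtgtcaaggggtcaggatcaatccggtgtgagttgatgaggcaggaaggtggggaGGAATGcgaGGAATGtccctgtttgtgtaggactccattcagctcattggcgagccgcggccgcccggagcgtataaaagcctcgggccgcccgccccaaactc
ANKRD1, chr10:90921088-90921337: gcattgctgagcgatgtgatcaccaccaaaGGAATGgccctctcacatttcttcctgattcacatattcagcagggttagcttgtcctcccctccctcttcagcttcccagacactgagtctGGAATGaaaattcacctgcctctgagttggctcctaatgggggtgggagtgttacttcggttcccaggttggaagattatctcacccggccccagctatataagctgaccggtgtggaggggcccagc

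The CTGF window held 3 copies of these letters and the ANKRD1 window held 2. Among 35116 RefSeq windows of this length 11.9% held at least 1 copy, 0.940% at least 2 and 0.0826% at least 3. Of the 30 listed YAP/TAZ-TEAD target genes 20 had a window in the table, and 8 of those windows held a copy. A match is a description of letters and does not show TEAD binding in these cells.

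NF1 itself was checked first, because its RNA bears on the labels. NF1 (ENSG00000196712, chr17:29421945-29708905, plus strand, hg19) had 853, 618 and 361 counts in parental replicates 1 to 3 and 29, 89 and 55 counts in NF1 mutant replicates 1 to 3. In CPM, a level relative to the library total and here scaled by TMM factors, the parental libraries were at 60.5, 55.3 and 26.1 and the mutant libraries at 8.22, 18.0 and 16.1. The lowest parental library, replicate 3, was above the highest mutant library, so the groups did not overlap. In a mixed population, fewer cells with NF1 RNA and less of it per cell cannot be told apart. The means were 47.3 ± 18.6 CPM (SD, n = 3) in parental and 14.1 ± 5.20 CPM in mutant cells. The log2 fold change, mutant against parental, was -1.75 with all 6 libraries (edgeR's quasi-likelihood test, adjusted p = 0.141) and -1.46 ± 0.39 (SE) without NF1 mutant replicate 1 (adjusted p = 0.105). It passed the threshold in limma's voomWithQualityWeights fit, which gives each library a weight for its spread (-1.75 ± 0.24, adjusted p = 1.84e-04). In DMSO the mean was 54.6 ± 18.3 CPM in parental and 15.7 ± 2.81 CPM in mutant cells (edgeR, log2 fold change -1.78 ± 0.27, adjusted p = 0.00229). The transcript is long, at 12425 bases, and EVI2A lies inside NF1 on the opposite strand.

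Whether any gene was called depended on the fit and on which libraries were used, NF1 mutant replicate 1 among them. With all 6 libraries edgeR called 0 of 11654 genes (0%), with 1945 genes at an unadjusted p under 0.05 and a smallest adjusted p of 0.0634. Without NF1 mutant replicate 1 it called 184 of 12573 genes, 35 higher (0.278%) and 149 lower (1.19%) in NF1 mutant cells. Without parental replicate 3 alone it called 82 genes, and without both it called 3846 of 12702 (30.3%). The weighted limma fit of all 6 libraries called 3599 genes (30.9%), 1566 higher (13.4%) and 2033 lower (17.4%). In that fit NF1 mutant replicate 1 received a weight of 0.108 and parental replicate 3 a weight of 0.264, against 1.71 to 3.17 for the others. Of the 11654 genes, 1308 were higher in every mutant than in every parental library (11.2%) and 1664 lower (14.3%). Of the 184 genes called without replicate 1, 169 did not overlap between the 6 libraries. The 178 that could be tested with all 6 had the same sign there, and the weighted fit called them too. These fits share the libraries in which the genes were called, so this agreement is not independent of that choice.

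**Figure D1:**
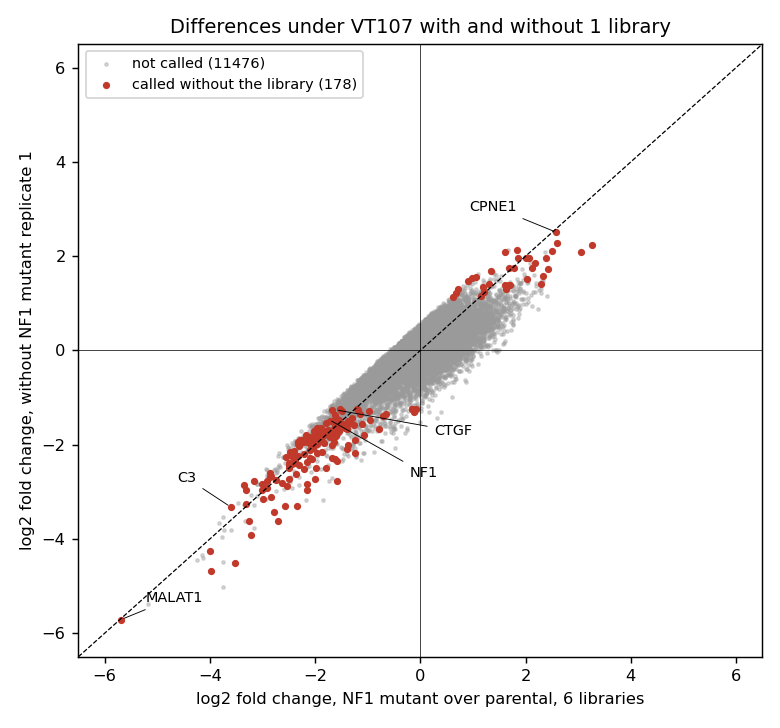
Log2 fold change of each gene, NF1 mutant against parental under VT107, with all 6 libraries (x axis) and without NF1 mutant replicate 1 (y axis). Red points are the 178 genes called without replicate 1 that were also tested with all 6, grey points are the other genes, and the dashed line marks equal values.

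The genes described first are the 14 largest rises and 14 largest falls among those called without NF1 mutant replicate 1 with a mean log2 CPM of 3 or more and separate groups. All 28 missed the threshold of 0.05 in edgeR with all 6 libraries, where their adjusted p lay between 0.0634 and 0.260. They all passed it in the weighted fit, which uses the same libraries. Separate groups were a condition of the choice, so separation in these 28 genes is not a result. The rises had log2 fold changes of 1.75 to 2.51 without replicate 1 and the falls of -5.71 to -2.76.

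Among the rises was CPNE1 (chr20:34213953-34252878), which encodes copine 1, a phospholipid-binding protein. CPNE1 was at 329, 309 and 424 CPM in parental and at 2388, 2108 and 1913 CPM in mutant libraries. Every mutant library was far above every parental one, and NF1 mutant replicate 1 was among its replicates. The log2 fold change of CPNE1 was 2.51 ± 0.25 without replicate 1 (edgeR, adjusted p = 0.0291), 2.58 with it and 2.58 in DMSO. MECR, an enzyme of mitochondrial fatty acid synthesis, had 22.9, 16.7 and 19.4 CPM in parental and 168, 103 and 88.6 CPM in mutant libraries. CENPM, a centromere protein, had 20.8, 27.1 and 23.5 CPM against 102, 102 and 84.2 CPM. Their log2 fold changes without replicate 1 were 2.28 and 1.97.

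TMSB10, an actin monomer-binding thymosin and the most abundant of the rises, was at 2896, 3414 and 3369 CPM in parental and at 6232, 17453 and 10895 CPM in mutant libraries. The mutant libraries spread widely, yet the lowest was above all parental ones (log2 fold change 2.13 without replicate 1, adjusted p = 0.0311, edgeR). PEG10, an imprinted gene derived from a retrotransposon, had 86.1, 68.3 and 41.9 CPM against 205, 292 and 214 CPM (1.96). The remaining rises were HES4 (2.23, and 3.27 with all 6 libraries, a HES family repressor), KPTN (2.11, a subunit of a lysosomal complex that restrains mTORC1), OSBPL7 (2.09, and 3.05 with all 6, an oxysterol-binding protein relative), FAM195A (1.96), RNH1 (1.96, the ribonuclease inhibitor), GPR44 (1.85, a prostaglandin D receptor), CHCHD10 (1.75, a protein of mitochondria), SPSB1 (1.75, a ubiquitin ligase adaptor) and SH3GLB2 (1.75, an endophilin).

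The largest fall was that of MALAT1 (chr11:65265233-65273940), an abundant noncoding RNA of nuclear speckles. MALAT1 was at 8149, 10050.0 and 2238 CPM in parental and at 138, 109 and 149 CPM in mutant libraries. The parental libraries spread widely, with replicate 3 lowest, and the mutant libraries lay close together and below all of them. The log2 fold change was -5.71 ± 0.74 without replicate 1 (edgeR, adjusted p = 0.0291), -5.70 with it and -5.64 in DMSO. NEAT1, the noncoding RNA that scaffolds paraspeckles, was at 1431, 1232 and 824 CPM against 479.5, 312 and 371 CPM (-1.76, adjusted p = 0.0461, edgeR without replicate 1). KCNQ1OT1, an imprinted antisense RNA, had 21.1, 19.4 and 21.3 CPM against 5.95, 3.65 and 4.39 CPM (-2.36, adjusted p = 0.0291). These 3 were the called members of the 8 nuclear noncoding RNAs tested, all lower, beside 1.19% of all genes called lower in that fit. The weighted fit called 4 of the 8 lower (50%, beside 17.4% of all genes) and 2 higher (25%, beside 13.4%).

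BRCA2, a DNA repair protein of homologous recombination, was at 15.9, 17.0 and 11.5 CPM in parental and at 4.53, 1.22 and 1.17 CPM in mutant libraries (-3.61 without replicate 1 and -2.71 with it). Few reads stood behind the mutant values, with 16, 6 and 4 counts for BRCA2 and 5, 16 and 9 counts for C3. Complement C3 had 25.2, 24.2 and 40.0 CPM against 1.42, 3.24 and 2.63 CPM (-3.33 ± 0.40, adjusted p = 0.0291, edgeR without replicate 1). The ephrin ligand gene EFNB2 had 111, 98.2 and 213 CPM against 21.5, 12.8 and 19.0 CPM (-3.16). The separate groups of BRCA2, C3 and EFNB2 were a condition of their choice. MAP1B, a microtubule-associated protein, was at 636, 620.5 and 867 CPM in parental and at 34.9, 87.0 and 94.2 CPM in mutant libraries (-2.97). RBM25, a splicing regulator, was at 333, 369 and 208 CPM against 31.5, 43.6 and 45.6 CPM (-2.76).

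The remaining falls were BDP1 (-3.10, a subunit of an RNA polymerase III initiation factor), LARP7 (-2.96, a protein of the 7SK particle), ELF1 (-2.93, an ETS transcription factor), ANKRD11 (-2.87, a chromatin regulator), WDR70 (-2.76) and DPM2 (-2.76, a subunit of dolichol-phosphate mannose synthase). DPM2 depended most on the outlying library, at -1.59 with all 6. ELF1 had only 9, 15 and 5 counts in the mutant libraries. BCYRN1 (-4.69, and -3.97 with all 6 libraries) and CDK11A (-4.26) have near-identical copies in the genome, among which the counting could divide reads, and are uncertain. Among all 184 called genes 89 share their position with an opposite-strand gene and 16 are known by a clone or contig name alone. The shares over all genes tested are not given here, so these counts do not set the called genes apart.

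**Figure D2:**
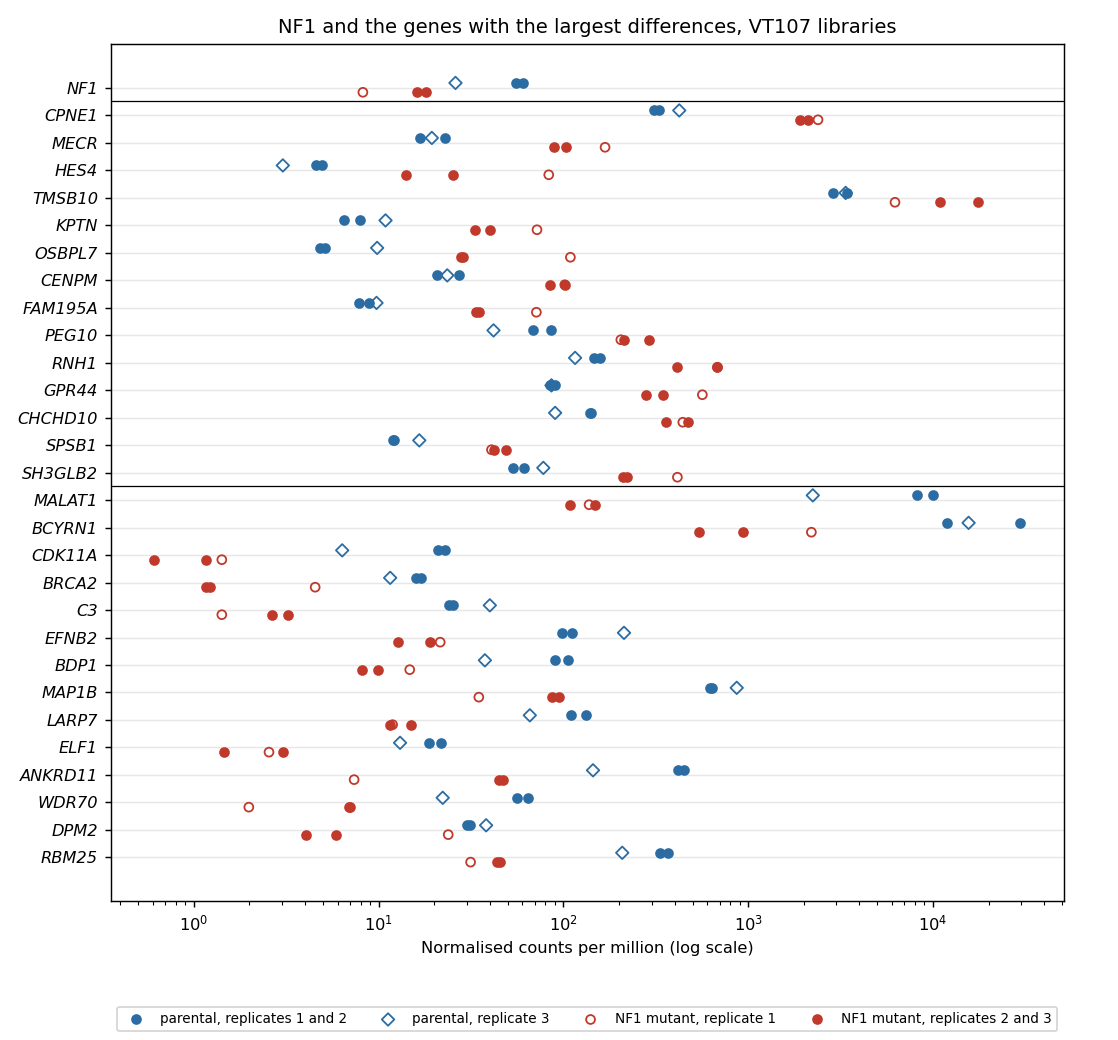
TMM-scaled CPM (log axis) of NF1, the 14 largest rises and the 14 largest falls in each of the 6 VT107 libraries. Parental libraries are blue and NF1 mutant libraries red, with open symbols for parental replicate 3 and mutant replicate 1. The 3 mutant libraries of NF1 lie between 8.22 and 18.0 CPM, below the parental 26.1 to 60.5 CPM.

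YAP/TAZ-TEAD target genes were lower in NF1 mutant cells in part, and the call depended on the fit. Without NF1 mutant replicate 1 edgeR called 0 of the 29 members tested, beside 1.46% of all genes. Of the 29, 22 lay below 0, with a median log2 fold change of -0.55 against -0.04 over all genes. The weighted fit of all 6 libraries called 14 of 28 lower, or 50%, beside 17.4% of all genes, and 1 higher. Without NF1 mutant replicate 1 and parental replicate 3 edgeR called 16 of 29 lower and 0 higher, beside 16.8% of all genes lower. Of the same 28 members, 9 were lower in every mutant than in every parental library (beside 14.3% of all genes) and 0 were higher (beside 11.2%).

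CTGF, a secreted matricellular protein, was at 30.6, 27.2 and 27.1 CPM in parental and at 3.97, 10.5 and 13.2 CPM in mutant libraries. The groups did not overlap, and NF1 mutant replicate 1 was the lowest. Means were 28.3 ± 1.97 CPM (SD, n = 3) and 9.22 ± 4.74 CPM. The log2 fold change was -1.26 ± 0.26 without replicate 1 (edgeR, adjusted p = 0.0654), -1.62 with it (adjusted p = 0.155) and -1.30 ± 0.23 in the weighted fit (adjusted p = 0.00112). ANKRD1, a nuclear ankyrin repeat protein, was at 33.6, 51.1 and 7.79 CPM against 7.37, 16.6 and 9.65 CPM. Its groups overlapped through parental replicate 3, and its log2 fold change was -1.62 in the weighted fit (adjusted p = 0.00646) but -1.21 without NF1 mutant replicate 1 in edgeR (adjusted p = 0.373).

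CYR61, the close relative of CTGF, was not called with all 6 libraries, without NF1 mutant replicate 1 or by the weighted fit. Its level was 241, 228 and 154 CPM in parental and 1.98, 163 and 220.3 CPM in mutant libraries, so that replicate 1 alone was far below the rest. The log2 fold change of CYR61 was -0.70 with all 6 libraries and -0.11 without replicate 1 (edgeR, adjusted p = 0.849). NPPB, which encodes a natriuretic peptide, was at 23.3, 22.7 and 3.97 CPM against 0.567, 8.51 and 5.27 CPM (-1.25 without replicate 1, adjusted p = 0.373). IGFBP3, an insulin-like growth factor binding protein, was at 24.4, 23.3 and 14.9 CPM against 1.98, 20.3 and 14 CPM (-0.27, adjusted p = 0.674). In both genes the groups overlapped.

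AMOTL2, an angiomotin that binds YAP, was at 121, 90.0 and 63.6 CPM in parental and at 17.6, 42.0 and 46.2 CPM in mutant libraries (weighted fit, -1.26 ± 0.22, adjusted p = 9.88e-04). TNFRSF12A, the receptor for TWEAK, was at 93.9, 80.1 and 132 CPM against 12.8, 29.8 and 46.8 CPM (-1.24, adjusted p = 0.00171). FJX1, a secreted relative of a fly planar polarity protein, was at 12.4, 9.04 and 3.83 CPM against 2.27, 2.64 and 2.34 CPM (-2.02, adjusted p = 0.00103). All 3 genes were lower in every mutant library, though FJX1 had only 8, 13 and 8 counts there. TGFB2, a transforming growth factor, was at 29.1, 31.0 and 34.9 CPM against 17.3, 18.9 and 18.4 CPM, also without overlap and with little spread in either group (weighted fit, -0.69, adjusted p = 0.0175). NUAK2, a kinase, was the member called higher by the weighted fit (0.73, adjusted p = 0.0489), although its groups overlapped.

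**Figure D3:**
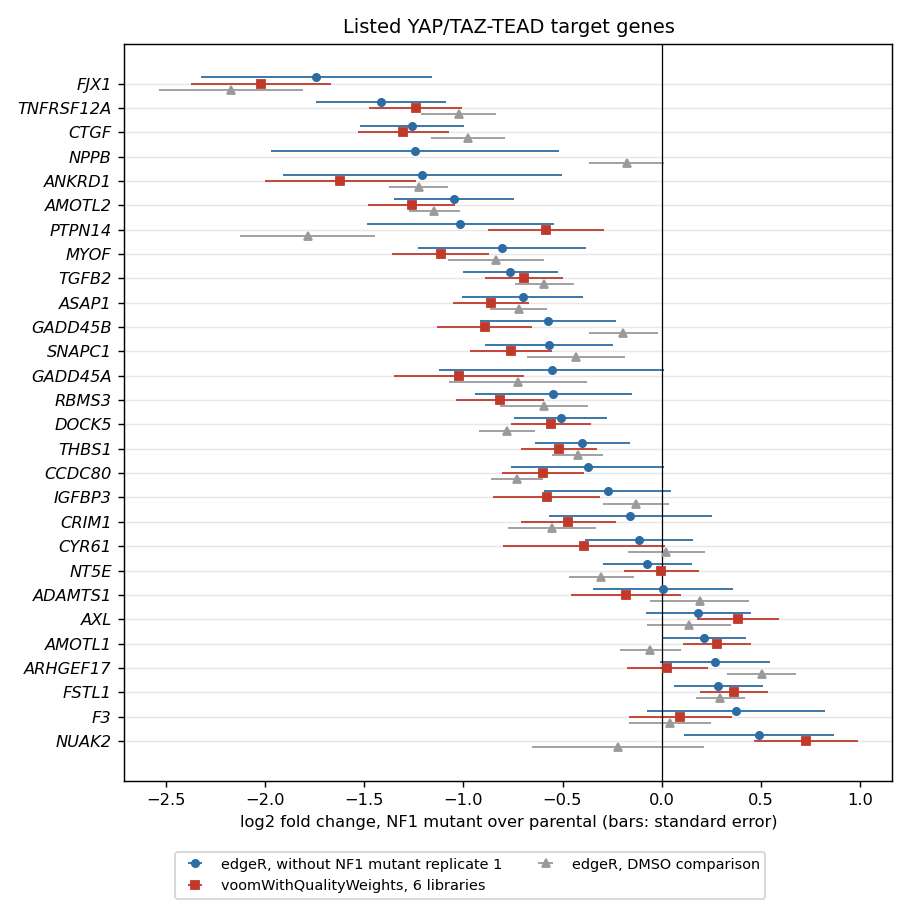
Log2 fold change of listed YAP/TAZ-TEAD targets, NF1 mutant against parental under VT107, by edgeR without NF1 mutant replicate 1 (blue) and by the weighted fit of 6 libraries (red), with the DMSO comparison in grey and bars for the SE. CTGF lies at -1.26 without NF1 mutant replicate 1 and CYR61 at -0.11.

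Among genes of the Hippo pathway itself, MAP4K4, a kinase upstream of LATS, was called without NF1 mutant replicate 1. It was the only one of 28 tested, beside 1.46% of all genes called in that fit. MAP4K4 was at 285, 257 and 269 CPM in parental and at 134, 116 and 108 CPM in mutant libraries (log2 fold change -1.27, adjusted p = 0.0418, edgeR). The weighted fit called 2 of 24 members higher (8.33%, beside 13.4% of all genes) and 8 lower (33.3%, beside 17.4%). Of the transcription factors and coactivators, TEAD1 was lower (149, 118 and 68.6 CPM against 62.9, 62.6 and 66.4 CPM, weighted fit -1.01, adjusted p = 0.00228). YAP1 was lower as well (69.5, 54.8 and 42.0 CPM against 13.3, 40.7 and 36.6 CPM, weighted fit -0.73, adjusted p = 0.0210). TEAD2 was higher in the weighted fit (1.74, adjusted p = 7.81e-04), with overlapping levels of 22.8, 17.7 and 68.9 CPM against 126, 48.9 and 92.7 CPM. TAOK1, a kinase that activates the Hippo kinases, was at 50.3, 39.9 and 5.99 CPM against 2.27, 1.42 and 1.76 CPM (weighted fit, -4.58, adjusted p = 5.61e-05). TAOK1 just missed the threshold in edgeR without replicate 1 (adjusted p = 0.0790), and parental replicate 3 was much nearer to the mutant level than the other parental libraries.

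The RAS and ERK genes, the pathway that neurofibromin controls, were called in both directions by the weighted fit. Of 21 RAS GTPases and RAS regulators tested without NF1 mutant replicate 1, edgeR called 0 (beside 1.46% of all genes). The weighted fit called 1 of 20 higher (beside 13.4% of all genes) and 7 lower (35%, beside 17.4%), NF1 among the 7. LZTR1, an adaptor for the degradation of RAS proteins, was at 19.7, 20.6 and 22.7 CPM in parental and at 89.8, 55.7 and 40.1 CPM in mutant libraries (weighted fit, 1.20, adjusted p = 7.92e-04). The RAS activator SOS2 was at 9.43, 7.34 and 5.34 CPM against 1.70, 2.64 and 2.63 CPM (-1.62, adjusted p = 0.00157). The groups did not overlap in either gene. HRAS was at 101, 98.9 and 108 CPM against 203, 76.0 and 92.4 CPM, and its log2 fold change turned from 0.26 with all 6 libraries to -0.28 without replicate 1 (edgeR, adjusted p = 0.787 and 0.492).

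Of 30 genes of ERK feedback and ERK output, edgeR called 0 without NF1 mutant replicate 1, beside 1.46% of all genes. Their median was -0.25 against -0.04 over all genes. The weighted fit called 2 of 28 higher (7.14%, beside 13.4% of all genes) and 6 lower (21.4%, beside 17.4%), shares near those of all genes. HBEGF, an EGF receptor ligand, was at 36.2, 38.3 and 55.6 CPM in parental and at 19.0, 19.5 and 21.6 CPM in mutant libraries (weighted fit, -0.87, adjusted p = 0.00635). ETV5, an ETS factor, had 42.5, 45.2 and 71.0 CPM against 32.0, 30.0 and 27.8 CPM (-0.63, adjusted p = 0.0269). The cyclin gene CCND1 had 1447, 1462 and 1318 CPM against 388, 872 and 1091 CPM (-0.56, adjusted p = 0.0490). These 3 genes did not overlap between the groups and were lower. HMGA2, a chromatin architectural protein, was higher without overlap (170.1, 156 and 231 CPM against 236, 237 and 266 CPM, weighted fit 0.60, adjusted p = 0.0171). MYC had 13.5, 8.78 and 8.30 CPM against 1.13, 25.5 and 21.4 CPM (0.94, adjusted p = 0.0420), with mutant replicate 1 below and the others above all parental libraries. DUSP6, the ERK phosphatase used as a readout of ERK activity, was at 71.2, 79.5 and 149 CPM against 3.12, 60.0 and 70.2 CPM, with adjusted p = 0.439 in the weighted fit and 0.369 in edgeR without replicate 1.

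**Figure D4:**
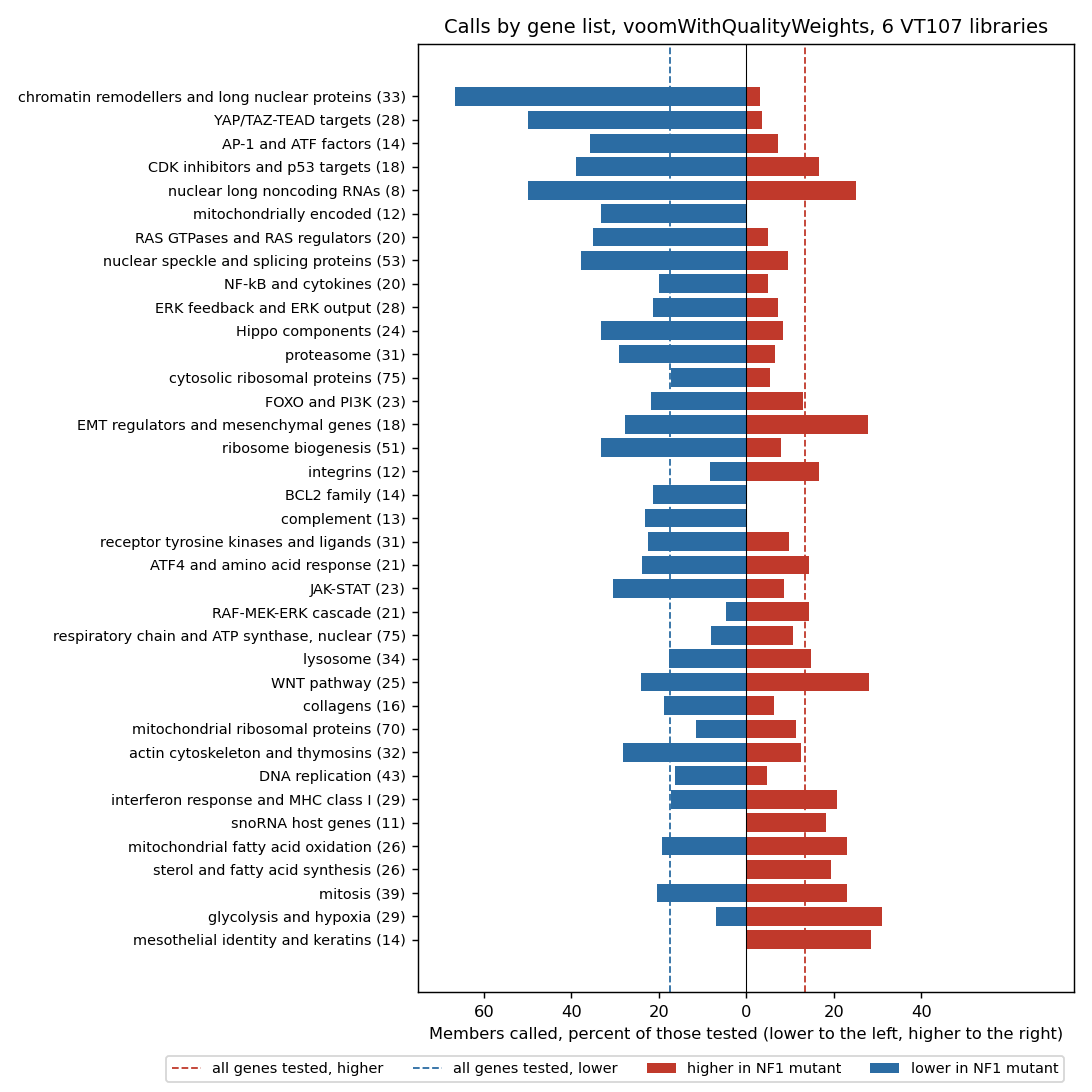
Share of tested members called higher and lower in NF1 mutant cells by the weighted limma fit of all 6 VT107 libraries (x axis, percent). Gene lists with 8 or more members tested are drawn, without the list of YAP/TAZ-TEAD genes that the study names. Dashed lines mark the shares over all 11654 genes, 13.4% higher and 17.4% lower.

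Calls without NF1 mutant replicate 1 were lower in 149 of 184 genes over the whole table, and those in the following lists were lower as well. Of 33 chromatin remodellers and very long nuclear proteins edgeR called 5 lower (BRCA2, BDP1, CHD2, ANKRD11 and CHD6), beside 1.19% of all genes, and 0 higher, with a median of -0.94. The weighted fit called 22 of the 33 lower (66.7%, beside 17.4% of all genes) and 1 higher (beside 13.4%), and their median transcript length was 10435 bases against 3620 bases over all genes tested. Of 53 nuclear speckle and splicing proteins 6 were called lower, beside 1.19% of all genes (among them RBM25, SREK1, PNISR, SRRM1 and THRAP3), with a median of -0.17 over the list and a median GC content of 40.7% against 48.2% over all genes. Of 31 proteasome genes 3 were called lower (beside 1.19% of all genes), and the weighted fit called 2 higher (6.45%, beside 13.4%) and 9 lower (29%, beside 17.4%). The proteasome list as a whole was not shifted: its median without replicate 1 was -0.01, with 16 members below 0 and 15 above. Over the 6 libraries 5 members were higher without overlap (beside 11.2% of all genes) and 5 lower (beside 14.3%). PSMA7, a subunit of the catalytic core, was at 923, 1081 and 1109 CPM in parental and at 437, 291 and 301 CPM in mutant libraries (-1.81, adjusted p = 0.0291, edgeR without replicate 1). The other called proteasome genes were PSMD7 (-1.72) and PSMD11 (-1.27), both of the regulatory particle.

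Several other lists had 1 member called without NF1 mutant replicate 1, beside 1.46% of all genes. Such a single call describes the gene and not its list. EIF2AK4, the kinase GCN2 that senses amino acid shortage, was at 132, 136 and 93.5 CPM in parental and at 19.6, 20.5 and 24.3 CPM in mutant libraries (-2.43, adjusted p = 0.0291, edgeR). BIRC3, an NF-kB target that ubiquitinates signalling proteins, had 32.3, 29.4 and 31.5 CPM against 7.37, 5.68 and 3.51 CPM (-2.73). CLSPN, claspin of the replication checkpoint, had 80.7, 79.5 and 39.2 CPM against 7.09, 8.92 and 11.7 CPM (-2.69). All 3 were separate in all 6 libraries. The mesenchymal cadherin CDH11 had 16.5, 10.0 and 11.9 CPM against 1.98, 2.23 and 1.46 CPM (-2.76). The WNT adaptor DVL2 was higher, at 35.9, 29.6 and 31.7 CPM against 131, 88.0 and 80.4 CPM (1.38, adjusted p = 0.0356). AKT1 and JDP2 rested on which libraries were used. AKT1, a kinase downstream of PI3K, had 105, 85.3 and 86.0 CPM against 8.79, 298 and 216 CPM (1.48 without replicate 1, adjusted p = 0.0359, and 0.91 with it). JDP2, a repressor of the AP-1 family, had 60.5, 50.1 and 51.8 CPM against 109, 23.1 and 22.5 CPM (-1.24 without replicate 1, adjusted p = 0.0497, and -0.08 with it).

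Genes of glycolysis and hypoxia had 0 of 30 called by edgeR without NF1 mutant replicate 1 (beside 1.46% of all genes) and a median of 0.31. The weighted fit called 9 of 29 higher (31.0%, beside 13.4% of all genes) and 2 lower (beside 17.4%), and 11 were higher in every mutant library (beside 11.2%). PFKL, the liver isoform of phosphofructokinase, was at 58.8, 57.6 and 87.4 CPM in parental and at 476, 162 and 159 CPM in mutant libraries (weighted fit, 1.46, adjusted p = 1.30e-04). PFKM, the muscle isoform of the same enzyme, was lower (25.9, 24.6 and 9.24 CPM against 11.9, 7.5 and 8.48 CPM, weighted fit -1.56, adjusted p = 0.00116), with overlap through parental replicate 3. Mesothelial and keratin genes had 4 of 14 called higher (28.6%, beside 13.4% of all genes) and 0 lower (beside 17.4%) by the weighted fit. EdgeR without NF1 mutant replicate 1 called 0 of 16 (beside 1.46% of all genes). There 10 members lay above 0 and 6 below, with a median of 0.13. KRT19, a keratin of mesothelial cells, was at 1348, 1284 and 2114 CPM in parental and at 5301, 2569 and 4301 CPM in mutant libraries (1.41, adjusted p = 7.49e-04).

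In DMSO the same genotype comparison, fitted on its own, gave more calls in edgeR, while with all 4 H2052 groups in 1 fit it gave fewer (963, against 1297 under VT107). On its own it called 3420 of 12475 genes (27.4%), 1557 higher and 1863 lower. This count too moved with every library: it was 2255, 2265 and 6409 without parental replicate 1, 2 or 3 and 1779, 1874 and 2072 without NF1 mutant replicate 1, 2 or 3. The VT107 and DMSO comparisons share no library, but both set libraries of the dated prefix against libraries of the mutant prefix. Of the 184 genes called under VT107 without replicate 1, 181 were called in DMSO, all with the same sign, which is 98.4% of the 184 and 5.29% of the 3420. CTGF stood at 75.8 ± 15.7 CPM (SD, n = 3) in parental and 38.0 ± 4.19 CPM in mutant cells in DMSO (edgeR, log2 fold change -0.98, adjusted p = 0.00579), beside -1.26 under VT107. ANKRD1 stood at 143 ± 8.50 CPM against 60.3 ± 10.6 CPM in DMSO (-1.23), and CYR61 at 451 ± 32.9 CPM against 454 ± 129.5 CPM (0.02, adjusted p = 0.941). Of the 29 listed YAP/TAZ-TEAD targets tested in DMSO, 13 were called lower (beside 14.9% of all genes), with a median of -0.55.

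No gene passed the test of whether the genotype difference itself differed between VT107 and DMSO. The edgeR interaction test over 12 libraries called 0 of 11432 genes (0%), with 78 genes at an unadjusted p under 0.05. Without NF1 mutant VT107 replicate 1 it called 0 of 12167 (124 unadjusted), and the weighted limma fit and DESeq2 called 0 as well (451 and 112 unadjusted). Among the genes with the smallest p, C3 had a log2 fold change of -3.60 under VT107 and -5.60 in DMSO, a difference of 2.03. Its mutant levels rested on few reads, at 5, 16 and 9 counts under VT107 and 0.536, 0.656 and 0.487 CPM in DMSO. HIF1A, the hypoxia-inducible factor, was at 72.1 ± 5.91 CPM (SD, n = 3) in parental and 96.1 ± 18.3 CPM in mutant cells under VT107, and at 57.0 ± 8.54 and 33.7 ± 2.42 CPM in DMSO, a difference of 1.17. DHCR7, the last enzyme of cholesterol synthesis, was at 54.8 ± 5.07 and 68.5 ± 13.7 CPM under VT107 and at 43.6 ± 5.00 and 108 ± 8.04 CPM in DMSO, a difference of -0.98. The difference for NF1 was 0.06 with all libraries and 0.33 without NF1 mutant VT107 replicate 1.

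GC content and transcript length moved with these values. Genes were split by transcript GC content into 5 bins of equal size. Against parental replicates 1 and 2, genes of the lowest GC bin (29.4% to 40.9%) had a median log2 difference of -1.25 in NF1 mutant replicate 1, -0.25 in replicate 2, -0.33 in replicate 3 and -0.43 in parental replicate 3. In the highest bin (58.0% to 74.7%) the same medians were 1.03, 0.19, 0.27 and 0.43. All 4 libraries were thus below parental replicates 1 and 2 at low GC and above them at high GC, NF1 mutant replicate 1 by the most. Of the genes called without replicate 1, 45 lower and 0 higher were in the lowest GC bin and 9 lower and 17 higher in the highest. By transcript length, 59 of the lower genes were in the longest of 5 bins and 21 in the shortest. As an alternative chosen after seeing the data, the GC and length trend of each library was fitted as an offset. Without NF1 mutant replicate 1 that fit called 386 of 12573 genes, 100 higher and 286 lower, more than without the offset. With the offset the median of the YAP/TAZ-TEAD targets was -0.36. Of 29 tested, 2 were called lower, CTGF (-1.37, adjusted p = 0.0345, edgeR) and TNFRSF12A (-1.51, adjusted p = 0.0228), and 0 higher. The median of the chromatin list was then -0.61, with 5 of 33 called lower and 0 higher. That of the splicing list was -0.05, with 8 of 53 lower and 1 higher. Of the 8 nuclear noncoding RNAs, 2 were called lower and 0 higher. These counts stand beside 286 lower and 100 higher of 12573 genes in the same fit. NF1 stood at -0.99 (adjusted p = 0.112).

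**Figure D5:**
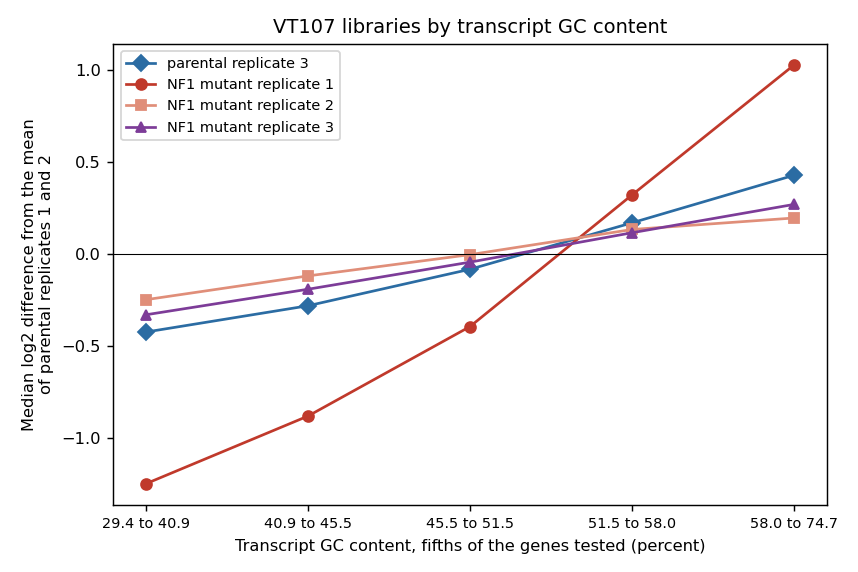
Median log2 difference from parental replicates 1 and 2 by bin of transcript GC content (x axis, percent) for the other 4 VT107 libraries. NF1 mutant replicate 1 runs from -1.25 to 1.03 and the other libraries from no lower than -0.43 to no higher than 0.43.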

How the data were processed

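The authors deposited raw counts per gene for H2052 (31017 rows, of which 63 repeat an ID and were summed, 30954 gene IDs). Per the submitters' processing notes, bcl2fastq 2.20.0.422 and hg19 were used. The aligner, counting program, annotation, kit and strand setting were not given in the sources used here. In parental VT107 libraries 19 pairs of opposite-strand genes were picked in which an abundant inner gene had many times the counts of the outer gene. In NF1 mutant VT107 libraries the inner gene had more counts in all 19. The way the pairs were picked favours that outcome, so it does not settle the strand setting. The H226 table was not used here. The study calls the replicates of each group biological.

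Genes reaching 0.5 CPM in all libraries compared were tested with edgeR 4.0.16 (R 4.3.3, TMM, quasi-likelihood, Benjamini-Hochberg, threshold 0.05). SE was taken as the size of the log2 fold change over the root of F. CPM used TMM factors over 12 H2052 libraries. Alternatives used limma 3.58.1 and DESeq2 1.42.0. Scripts were tested on simulated data. Coordinates are those of the table. GC content and length are those of the longest GENCODE transcript and covered 97.3% of the genes tested. With 3 libraries a side, no exact permutation p can go under 0.1, so none was used.

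Gene lists (42, from general knowledge) and members were chosen with earlier results of these data known. Named genes were to be the 14 largest rises and falls called with all 6 libraries and without NF1 mutant replicate 1, with a mean log2 CPM of 3 or more and separate groups, then list members (up to 5 called and 3 others). As 0 genes met the first part, the call with all 6 was dropped after values were seen, and TAOK1, TEAD2, YAP1, PFKL, PFKM and others were also chosen then. A few single genes of the lists are not reported here.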

Additional observations from a re-analysis of the deposited data

How the results depend on the processing

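Under VT107 the number of genes called with all 6 libraries was 0 in edgeR with TMM or RLE factors, a filter of 10 counts in 2 libraries of each group, limma-voom, the replicate number as a block, counts thinned to the smallest total, and a GC and length offset. It was 196 (20 higher, 176 lower) without a filter, 612 (158, 454) by the likelihood ratio test, 682 (233, 449) by DESeq2, 1297 (553, 744) with all 4 H2052 groups in 1 fit and 3599 by voomWithQualityWeights. Leaving out 1 library at a time gave 0 to 184. Without NF1 mutant replicate 1, alternatives chosen after seeing the data gave 38 (limma-voom), 386 (GC and length offset), 507 (block), 1035 (DESeq2), 1698 (4 groups), 3601 (voomWithQualityWeights) and 3846 calls (parental replicate 3 left out too). Same-numbered VT107 libraries had correlations of their deviations from the group means of -0.29, 0.34 and -0.21. Each group mean includes an outlying library, so these values cannot show whether the numbers pair libraries. In DMSO the count was 3420, with 963 (4 groups) and 6554 (voomWithQualityWeights) as the values that moved, and 1779 to 6409 with 1 library left out. The GC and length offset gave 3868 in DMSO, 2296 higher and 1572 lower, beside 1557 and 1863. The interaction test called 0 genes in every alternative run. Of 2169 pairs of a named gene and an alternative, over 92 genes, 1396 kept direction and side of the threshold, 751 now passed it, 3 no longer did and 19 turned direction, in 5 genes. HRAS, at 0.26 with all 6 libraries, was at -0.20 by voomWithQualityWeights and -0.15 with the offset, and without NF1 mutant replicate 1 at -0.28 in edgeR, -0.38 with the offset, -0.27 by DESeq2, -0.25 by voomWithQualityWeights, -0.29 by limma-voom, -0.28 with 4 groups, -0.30 with the block and -0.24 with parental replicate 3 left out too, and at -0.28 to 0.52 with 1 library left out. JDP2, at -0.08, was at 0.0322 by RLE, 0.0339 by DESeq2, 0.28 with the offset and -1.24 to 0.28 with 1 library left out. By limma-voom MYC was at -0.16 and AKT1 at -0.13, and with the block and without replicate 1 CYR61 was at 0.0103. The cause of these turns was not tested. The median log2 fold change of all genes was -0.02, and it shifted to -0.29 without a filter and to 0.17 with the offset. Depth limits the mutant libraries, where 29 counts stood behind the lowest NF1 value.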

Other observations

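Medians of the log2 fold change by chromosome, NF1 mutant against parental under VT107, lay between -0.16 (chromosome 4) and 0.06 (chromosome 22) without NF1 mutant replicate 1. With all 6 libraries they lay between -0.27 (chromosome 18) and 0.29 (chromosome 19).

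A pair of thymosins in the actin list was called without NF1 mutant replicate 1, in opposite directions. TMSB10 was higher, as described above, while TMSB4X was at 147, 342 and 298 CPM in parental and at 0.567, 51.9 and 42.7 CPM in mutant libraries (edgeR, log2 fold change -2.47, adjusted p = 0.0397). TMSB4X has many near-identical copies, so its value is uncertain. Sterol and fatty acid synthesis genes had 5 of 26 called higher (19.2%, beside 13.4% of all genes) and 0 lower (beside 17.4%) by voomWithQualityWeights.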
